A study of Homo sapiens with 4 samples.

Results

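The miRNAs with late numbers, miR-548 to miR-663, were examined in LAPC-4 cells, an androgen-responsive human prostate cancer line. They were chosen by name alone, as the fully matching human probes whose number lies in that range, which gave 120 of the 455 human miRNA probes on the array. Each of the 120 has a companion mismatch probe, which carries the same miRNA name and 2 altered bases, and the question asked was which signals exceed that companion. The cells had spent 24 hours in androgen-free medium with 10% charcoal-stripped serum before they received the synthetic androgen R1881 at 0, 0.1, 1 or 10 nM. Each dose is 1 sample on 1 array labelled with Cy3, so there are 4 arrays and no replicate of a dose. The labels leave the length of the R1881 treatment unclear, and nothing in them says that the 4 samples were separate cultures, so each p-value below measures only the scatter between these arrays, which may be technical. Of 5 miRNAs listed as markers of prostate epithelial cells all 5 lay above the detection limit on at least 1 array. Of these, miR-375 lay above it on the untreated array alone. For blood 0 of 4 lay above it on any array, for stroma 0 of 3, for liver 0 of 1 and for neural cells 0 of 2. For muscle 1 of 3 did, miR-206, whose mismatch probe kept 66.6% of its signal.

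A mature miRNA is a short RNA that guides an Argonaute protein to messenger RNAs, mainly through its seed, the bases from the second to the eighth. Numbers are given in order of discovery, so miRNAs named late were often those cloned rarely, many of them known from primates alone, and some names were later withdrawn as fragments of other RNAs. On a hybridization array such a miRNA has to be told from RNA that binds the probe through partial pairing. A probe with 2 altered bases measures part of that binding, because it should hold the intended miRNA less well.

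RefSeq's miRNA genes (GRCh38.p14) include 115 of the 120 names. The 5 without a match were miR-550, miR-560, miR-565, miR-566 and miR-594. The search was by name and synonym, so it can miss a gene that was renamed, and a missing match does not mean that the miRNA was withdrawn. For 61 members the table held a mature miRNA with exactly the array's name, and for 34 it held only names with an arm (5p or 3p), which the array does not give. The mature sequences of 10 members are shown because the results turn on them. They are in 5′ to 3′ order with the seed in capitals, and no 2 members among the 61 share a seed. The first 4 belong to probes that were on average 0.88 to 1.38 log2 units above their mismatch. Without R1881, miR-631 exceeded its mismatch by only 0.36. The next 3 belong to probes whose mismatch was as bright or nearly so, and the last 3 to probes outshone by their mismatch.
miR-601: uGGUCUAGgauuguuggaggag
miR-617: aGACUUCCcauuugaagguggc
miR-564: aGGCACGGugucagcaggc
miR-631: aGACCUGGcccagaccucagc
miR-638: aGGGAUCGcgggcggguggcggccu
miR-640: aUGAUCCAggaaccugccucu
miR-608: aGGGGUGGuguugggacagcuccgu
miR-568: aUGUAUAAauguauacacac
miR-647: gUGGCUGCacucacuuccuuc
miR-554: gCUAGUCCugacucagccagu

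In the same table (GRCh38.p14) miR-601 lies at chr9:123402567-123402588 on the minus strand, within the span of DENND1A, and miR-617 at chr12:80832593-80832614 on the minus strand, within LIN7A. miR-564 lies at chr3:44861903-44861921 on the plus strand within KIF15, and miR-631 at chr15:75353650-75353670 on the minus strand within NEIL1, a DNA repair gene. miR-638 is at chr19:10718419-10718443 (plus) within DNM2, miR-640 at chr19:19435123-19435143 (plus) within GATAD2A and miR-608 at chr10:100975000-100975024 (plus) within SEMA4G. miR-568 is at chr3:114316535-114316554 (minus) within ZBTB20, miR-647 at chr20:63942691-63942711 (minus) within UCKL1 and miR-554 at chr1:151545811-151545831 (plus) within TUFT1. In all, 88 of the 120 lie within the span of a protein-coding gene. The table gives no strand for that gene, so the direction of the miRNA relative to it is not stated here.

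Most late-numbered miRNAs gave little signal. The detection limit was the 95th percentile of the mismatch probes of the same array, 117.6 intensity units without R1881 and 135.5, 138 and 143.5 at rising dose. On at least 1 array 21 of the 120 (17.5%) exceeded it, against 29.9% of all human probes and 115 of the other 335 (34.3%). On all 4 arrays 11 did (9.17%, against 23.3% of all human probes). The median over members of the mean matched intensity was 88.3, and that of the mismatch intensity was 83.6. For the other human miRNAs these medians were 96.5 and 82.5.

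Matched and mismatch probes were then compared within each array. Of the 115 members with a usable mismatch probe, 58 were brighter than it on all 4 arrays (50.4%, against 62.7% of all human pairs) and 21 were dimmer on all 4 (18.3%, against 8.56%). The 5 others, miR-553, miR-616, miR-639, miR-644 and miR-655, have a mismatch probe listed at 0 on 1 array and were left out, and none of these 5 was detected. Without R1881 74.8% of members were brighter than their mismatch, and with 0.1, 1 and 10 nM 72.2%, 57.4% and 68.7% were, so the array at 1 nM was the lowest. The same share over the other human miRNAs was 85.5%, 83.3%, 75.7% and 85.8%, and it was lowest on that array too.

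**Figure D1:**
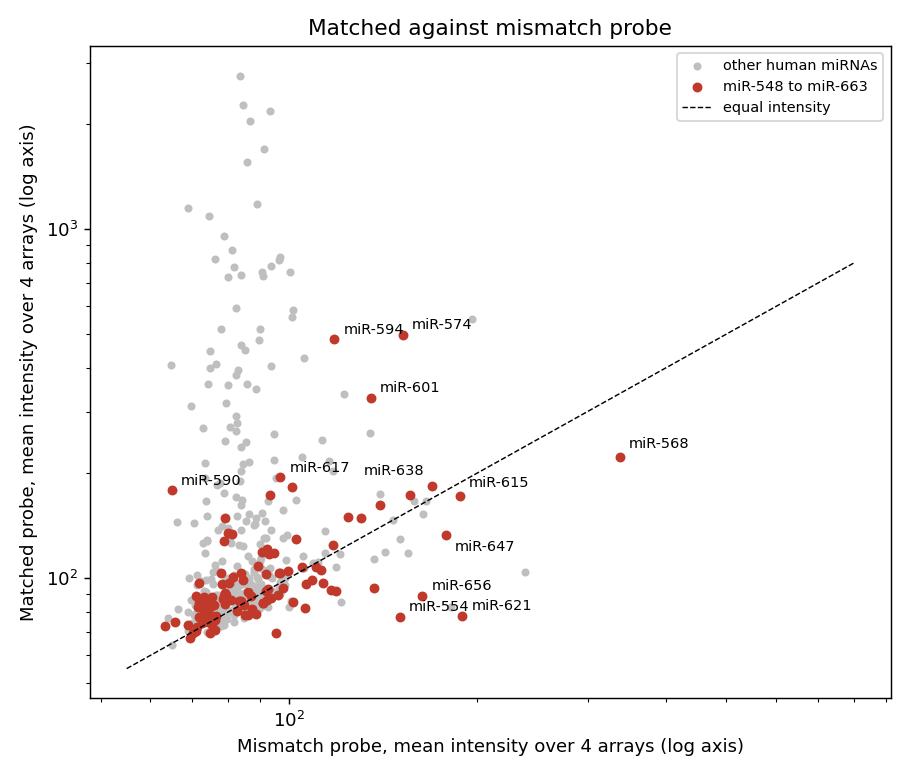
Mean intensity over 4 arrays of each matched probe (y axis) against that of its mismatch probe (x axis), both on log axes, for the 115 members (red) and the other human miRNAs (grey); the dashed line marks equal intensity. miR-574, miR-594 and miR-601 stand well above the line, while miR-568, miR-647, miR-621, miR-554 and miR-656 lie below it.

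The difference between log2 matched and log2 mismatch intensity was tested over the 4 arrays with limma, after background correction and with Benjamini-Hochberg adjustment over all 432 human pairs. Of the 115 members, 50 (43.5%) passed an adjusted p of 0.05 with the matched probe brighter, against 55.3% of all human pairs, and 13 (11.3%) with the mismatch brighter, against 5.09%. The median difference was 0.13 log2 units over the members and 0.21 over all pairs. Most of the 50 were small differences near background. In the deposited intensities, without background correction, 7 members (6.09%, against 21.5% of all human pairs) were at least 1.5-fold brighter than their mismatch on all 4 arrays. Those 7 were miR-594, miR-574, miR-590, miR-601, miR-617, miR-564 and miR-575, and all 7 are among the 12 brightest members. After background correction miR-627, miR-629 and miR-660 reached 1.5-fold on all 4 arrays as well.

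**Figure D2:**
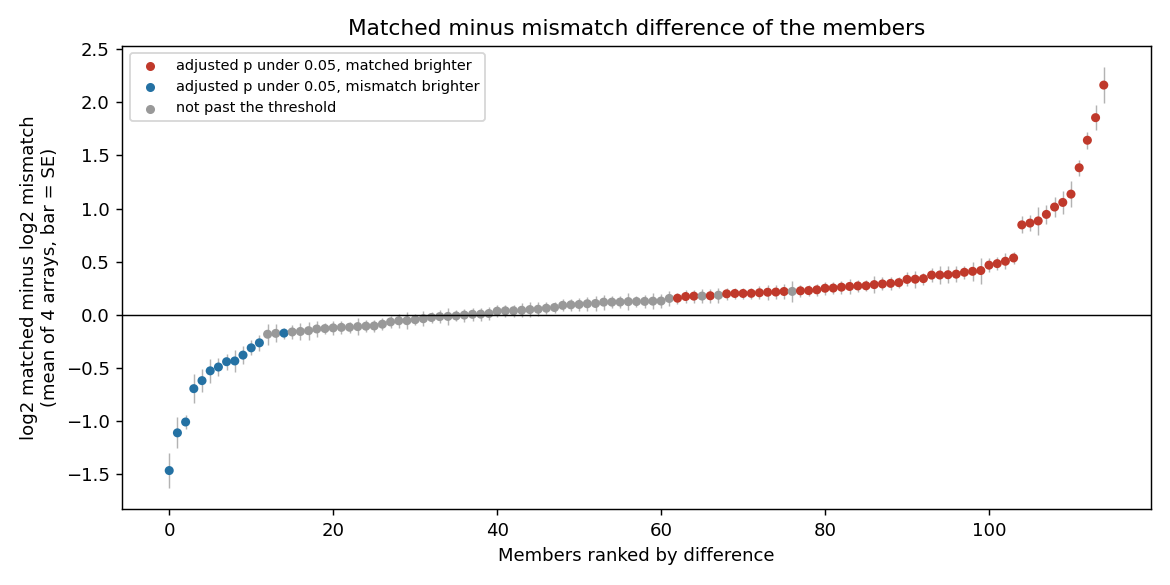
Difference between log2 matched and log2 mismatch intensity (mean of 4 arrays, bars are the standard error) for 115 members in rank order. The highest is miR-594 at 2.16 and the lowest miR-621 at −1.46; 50 members pass the adjusted threshold with the matched probe brighter and 13 with the mismatch brighter.

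miR-594 had the largest difference of the members, at 2.16 ± 0.17 (SE, 4 arrays, limma, adjusted p = 2.69e-05). Its matched probe read 298.25 without R1881 and 456, 519.75 and 662 at rising dose, and its mismatch 119.5, 102.5, 133.5 and 117. The 2 sets of values did not overlap. miR-594 has no match among the miRNA gene names of the RefSeq table, so what RNA gave this signal is not named here.

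miR-574 was the brightest member on average. It read 501, 472, 446.25 and 574.5 on the 4 arrays from the untreated one to 10 nM, against 118, 167, 160 and 163.5 for its mismatch, a difference of 1.85 ± 0.12 (SE, limma, adjusted p = 8.73e-06). Its mismatch was lowest on the untreated array and exceeded the detection limit on all 4 arrays. The hairpin lies within the spans of FAM114A1 and TLR6 on chromosome 4 and gives rise to 2 mature miRNAs, which the array name does not tell apart.
miR-574-5p: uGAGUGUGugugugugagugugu
miR-574-3p: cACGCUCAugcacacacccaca

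miR-590, within the span of EIF4H, a gene for a translation initiation factor, read 159.25, 166.75, 191.75 and 197.5, and its mismatch 65, 65, 67 and 62.5. The difference of 1.64 ± 0.08 had the smallest adjusted p-value of the members (limma, adjusted p = 1.81e-06). The 5p arm in the RefSeq table has the same seed as miR-21, an abundant miRNA raised in many tumours whose own probe averaged 1182 on these arrays. The 2 differ in most of the bases after the seed, as the sequences show, and which arm the miR-590 probe reads is not given.
miR-590-5p: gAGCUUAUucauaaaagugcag
miR-21-5p: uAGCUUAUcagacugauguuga

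miR-601 read 249.5, 323.75, 333 and 406.5 against 123, 133.5, 137.5 and 147 for its mismatch, a difference of 1.38 ± 0.07 (SE, limma). miR-617 read 148.5, 190, 198.75 and 240 against 95, 91.5, 112 and 89, a difference of 1.14 ± 0.12. In both the lowest matched value was above the highest mismatch value. miR-618, which lies within LIN7A as miR-617 does, was not detected and read 82, 79, 79.25 and 72.25, close to its mismatch at 82.5, 77.5, 99 and 81. The 2 genes of this pair were thus read at different levels on the array, though levels of different probes are not on a common scale.

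miR-564 read 132, 163.5, 181.25 and 216.25 against a mismatch between 88 and 100, and miR-575, within SCD5, 132.75, 164, 200.5 and 230 against 88, 98.5, 114 and 104.5. Their differences were 1.01 ± 0.10 and 0.94 ± 0.09 (SE, limma). Both were above the limit on every array. miR-629, within TLE3, a gene for a transcriptional corepressor, read 111.25, 156.25, 145.5 and 180 against a mismatch of 78 to 80. miR-631 read 104.75, 136.5, 141.25 and 155.25 against 75 to 86, and miR-660, within CLCN5 on the X chromosome, 119.5, 126.75, 135.25 and 154 against 78.5 to 82.5. miR-629 and miR-631 did not reach the limit without R1881, and miR-660 was under it at 0.1 and 1 nM. miR-627 stayed under the limit on all 4 arrays (112.25 to 138) and still exceeded its mismatch (74 to 81.5) by 0.85 ± 0.08 (SE, limma, adjusted p = 7.68e-05).

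The authors' deposited table of processed values gives a second view of the same signals. Set against the array files, it holds each matched intensity less 1 constant per array (84.5, 82, 87 and 76 from 0 to 10 nM), and values under double that constant are blank. Of the late-numbered miRNAs 18 of 120 have a value there on at least 1 array (15%, against 24.6% of all human miRNAs), with 5 at 0 nM, 11 at 0.1 nM, 10 at 1 nM and 17 at 10 nM. Mismatch probes are not in that table, but the same constant can be taken from them. The share of the matched signal that the mismatch kept, averaged over the arrays with a value, fell into 2 ranges among the 18. In 10 members it was 21.7% or less, and in 8 it was 54.5% or more. A limit of 40% between them, chosen after these values were seen, divides the other human miRNAs into 85 under it and 5 over it. The median share was 21.2% over the 18 members and 0.634% over the other 90 with a value. For a given mismatch signal above the constant, the share is smaller where the matched signal is brighter. The 90 include brighter probes, such as miR-21 with a mean of 1182, while the brightest member, miR-574, averaged 498. The sets were not matched for brightness, and whether their shares differ at equal brightness was not tested.

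**Figure D3:**
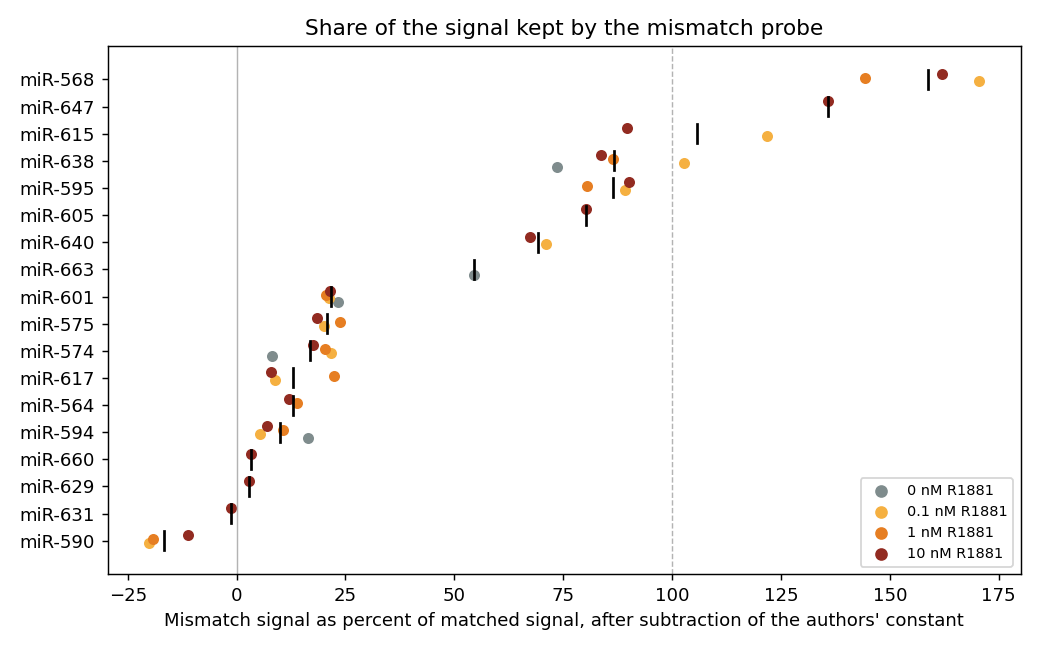
Mismatch signal as a percent of the matched signal (x axis), both less the authors' constant for the array, for the 18 members with a value in the authors' table; each point is 1 array, coloured by R1881 dose, and the black bar is the mean of the points. The upper 8 miRNAs lie at 54.5% to 159%, and the lower 10 at 21.7% or less.

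The 10 with a low share were miR-590, miR-631, miR-629, miR-660, miR-594, miR-564, miR-617, miR-574, miR-575 and miR-601. For miR-590 and miR-631 the mismatch lay at or under the constant, so that the share was negative (−16.8% and −1.26%), and for miR-601 it was 21.7% with little spread, 20.5% to 23.3% on 4 arrays. The values for miR-629, miR-631 and miR-660 rest on the 10 nM array alone, as do those of miR-605 and miR-647 in the high range. That of miR-663, the lowest of the high range at 54.5%, rests on the untreated array alone. The number of arrays therefore differs from member to member, and no test was made between the 2 ranges.

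The 8 with a high share included some of the brighter late-numbered probes. miR-638, within DNM2, the gene for a dynamin that pinches off membrane vesicles, read 198, 170.5, 186 and 180, and its mismatch read 168, 173, 172.5 and 163. The ranges overlapped and the difference of 0.13 ± 0.06 did not pass (SE, 4 arrays, limma, adjusted p = 0.118). miR-615, within the spans of HOXC4 and HOXC5, read 140, 172.75, 171.5 and 201.5 against a mismatch of 167.5, 192.5, 200.5 and 188.5, which was brighter on the first 3 arrays and dimmer at 10 nM (difference −0.16 ± 0.08, limma, adjusted p = 0.122). Without the 10 nM array the miR-615 difference was −0.24 and passed (limma, adjusted p = 0.0189).

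miR-595, miR-605 and miR-640 were between 0.18 and 0.21 log2 units above their mismatch probes, and passed (limma, adjusted p = 0.0487, 0.0234 and 0.035). All 3 calls were lost when only detected probes were tested (limma, adjusted p = 0.106, 0.0589 and 0.0664). miR-640 read 116.75, 172, 162.75 and 194 against 117, 146, 140.5 and 155.5, so the pair was level on the untreated array. miR-663, which read 178, 144.25, 142 and 132.5 against 135.5, 119, 125.5 and 117, was brighter than its mismatch on each array by 0.30 ± 0.06 (SE, limma, adjusted p = 0.0061). Both probes of miR-663 read highest on the array without R1881.

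In the other direction, miR-568 and miR-647 were detected but outshone by their own mismatch. miR-568 read 133.5, 241.25, 227 and 288.5 and its mismatch 288, 353.5, 289 and 420, a difference of −0.69 ± 0.14 (SE, limma, adjusted p = 0.0039) that no longer passed with the authors' constant subtracted (limma, adjusted p = 0.0511). The mismatch of miR-568 was the brighter probe on all 4 arrays. miR-647 read 103.25, 137.75, 134.5 and 157 against 153, 201.5, 171 and 186, a difference of −0.49 ± 0.08 (SE, limma, adjusted p = 0.0017).

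Several probes at background had a bright mismatch. miR-621, within SLC25A15, read 82, 74.75, 79 and 76 while its mismatch read 124, 204, 202.5 and 226.5, which gave the lowest difference of all members, −1.46 ± 0.17 (SE, limma, adjusted p = 0.000221). miR-554 read 77.5, 74.25, 77 and 81 against 101, 163.5, 166.5 and 170. miR-656, a member of the imprinted miRNA cluster on chromosome 14, read 73.5, 90, 92.5 and 100.25 against 120.5, 170.5, 156.5 and 205.5. In all 3 the mismatch was dimmest on the untreated array and brighter on each treated one. The mismatch of miR-550 read 91, 147.5, 146.5 and 162, also lowest without R1881 (difference −0.62 ± 0.11, SE, limma), but its call was lost when the authors' constant was subtracted (limma, adjusted p = 0.0511). miR-606 (−0.53 ± 0.11) and miR-641 (−0.44 ± 0.07) were below their mismatch probes too (SE, limma), but those mismatch probes stayed under the detection limit on all 4 arrays, and that of miR-606 was dimmest at 10 nM. A mismatch probe lay above the detection limit on at least 1 array for 16 of the 115 members (13.9%, against 6.94% of all human pairs), and for 5 of the 16 the matched probe was undetected on every array. Those 5, named after their values were seen, were miR-550, miR-554, miR-621, miR-656 and miR-658.

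Lists of related members were mostly at background. The miR-548 family, primate miRNAs derived from a small transposon, had 4 probes and 0 above the limit, with mean intensities from 69.4 to 87.3. Of these, miR-548b was above its mismatch by 0.20 ± 0.06 (SE, limma, adjusted p = 0.019) and the other 3 did not pass. Of 14 members recalled as conserved in mammals, 4 were detected, miR-574, miR-590, miR-615 and miR-660, a share close to the 29.9% of all human probes. Of the 13 with a usable mismatch 5 passed above it and 1, miR-656, below it, with a median difference of 0.13, the same as over all members. The chromosome 14 miRNAs miR-654, miR-655 and miR-656 were all undetected, with mean intensities of 70.8 to 89.1.

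Base composition moved with intensity. Across the 60 members with an exact mature sequence and a usable mismatch, the share of G and C had a Spearman's rho of 0.53 with the matched intensity and of 0.48 with the mismatch intensity, but of 0.11 with the difference between them (Pearson's r 0.20, 0.08 and 0.11). These points share the same 4 arrays and are given as a description. The 16 members richest in G and C (60.9% to 80%) had a median matched intensity of 107 and a median mismatch intensity of 97.4. Of these 16, 6 were detected, against 11 of all 60. Among the 6, miR-608, miR-623 and miR-637 were above the limit on the untreated array alone. The 16 poorest (23.8% to 40.9%) had medians of 78.1 and 75.5, and 1 was detected, miR-568. miR-638 and miR-572 are the richest of the 60 in G and C, both at 80%, and miR-572 was undetected with a mean intensity of 89.9. miR-568 is among the poorer ones, at 25%. The brightest of the rich 16 after miR-638 were miR-564, miR-631 and miR-623 (mean 129.5, difference 0.41 ± 0.09). After miR-568 the brightest of the poor 16, miR-592, miR-620 and miR-649, averaged 107, 89.2 and 88.3.

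The 21 detected members were compared with the untreated array. Of the 21, 15 were above the untreated level at all 3 doses (71.4%, against 65.4% of 136 detected human miRNAs), and after quantile normalization 12 were (57.1%, against 26.5%), while 7 were below at all 3 (33.3%, against 42.6%). The median of the mean log2 ratios was 0.55 over the 21 and 0.21 over all detected miRNAs with no scaling, and 0.24 and −0.04 after quantile normalization. There was 1 untreated array, and all ratios share it. The filter had a part in these counts: miR-647, miR-640, miR-631, miR-629 and miR-605 passed it on treated arrays alone and are 5 of the 12, while miR-608, miR-623 and miR-637 passed it on the untreated array alone. The counts are therefore a description and carry no weight as a response of the members. After quantile normalization 1 member, miR-568, was at least 1.5-fold above untreated at all 3 doses (4.76%, against 1.47% of detected miRNAs), and 0 were 1.5-fold below at all 3 (against 0%). With no scaling miR-594 joined it, and 2 members met the rule. Dose by dose, 1, 2 and 2 members were 1.5-fold above untreated at 0.1, 1 and 10 nM (against 1.47%, 2.21% and 2.21% of detected miRNAs) and 0, 0 and 1 were 1.5-fold below (against 0%, 2.21% and 2.21%). The single one below, miR-663, was under the limit at 10 nM.

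The highest mean log2 ratios among members with 1 sign at all 3 doses were 0.77 for miR-568, 0.59 for miR-594, 0.47 for miR-640, 0.45 for miR-647 and 0.42 for miR-629. The lowest were those of miR-663 (−0.63), miR-608 (−0.46), miR-638 (−0.42), miR-623 (−0.29) and miR-574 (−0.26), all after quantile normalization. With no scaling these 5 stood at −0.36, −0.20, −0.13, −0.01 and −0.01. Without R1881 the signals of miR-640, miR-647, miR-629, miR-631 and miR-605 did not reach the limit, and miR-608 and miR-623 did not reach it at any of the 3 doses of R1881. Their ratios are therefore partly between values that were not above the limit.

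The mismatch probes had ratios of their own. With no scaling, 18 of the 21 mismatch probes had a mean log2 ratio to the untreated array above 0, with a median of 0.12, against 65 of the 109 mismatch probes of other detected human miRNAs, with a median of 0.02. This count turned on the scaling. After quantile normalization the mismatch ratios of miR-594, miR-601, miR-608, miR-623 and miR-638 were below 0, though above 0 with no scaling. The set also holds members that passed the detection filter on treated arrays alone. No test was made between these sets. miR-594 had 0.91 for the matched probe and 0.02 for its mismatch, and miR-617 had 0.58 and 0.11. miR-568 had 1.05 and 0.31, and miR-640, under the limit without R1881, had 0.72 and 0.43. For miR-574 the matched probe had −0.01 and the mismatch 0.59. The share of signal the mismatch kept was measured mostly on treated arrays, so it is not independent of these ratios, and the members are not compared by it here.

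**Figure D4:**
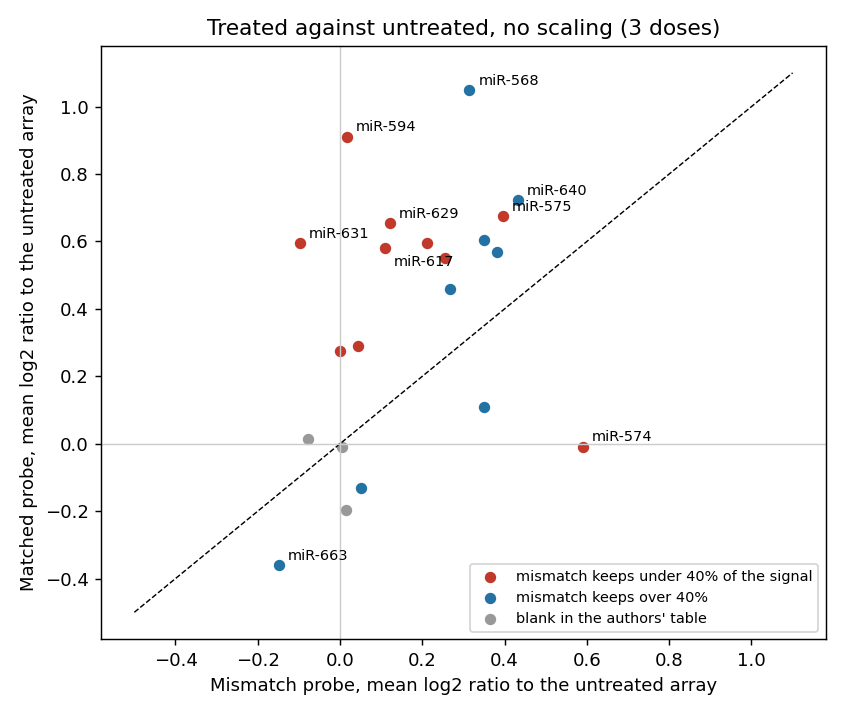
Mean log2 ratio of the 3 treated arrays to the untreated array, with no scaling, for the matched probe (y axis) and the mismatch probe (x axis) of the 21 detected members, coloured by the share of signal the mismatch kept. The share comes mostly from treated arrays and so depends on these ratios; miR-594 lies at 0.02 for the mismatch and 0.91 for the matched probe, whereas miR-574 lies at −0.01 for the matched probe and 0.59 for the mismatch.

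The difference between matched and mismatch probe reduces the effect of a factor common to an array but need not remove it. It was taken after background correction with an added offset, and such a factor does not cancel fully then, least of all near background. A scaling that acts by intensity, such as quantile normalization, does not cancel either. How much of a common factor remained was not tested. The difference was above its untreated value at all 3 doses in 14 of the 21 members (66.7%, against 53.8% of 130 detected human pairs) and below at all 3 in 5 (23.8%, against 18.5%). The 5 below were miR-574, miR-595, miR-608, miR-638 and miR-663. Here too the detection filter had a part. Every member that passed it on treated arrays alone is among the 14, and miR-608 passed it on the untreated array alone. These counts are therefore a description and carry no weight as a response of the members.

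A straight line over dose rank was fitted to that difference with limma, and 0 of the 21 members passed after adjustment over 130 pairs in either direction. Over all pairs 2.31% rose, which are miR-16, miR-21 and miR-29b, and 0% fell, and after quantile normalization 0% did either. At an unadjusted p under 0.05, 9 members had rising and 0 falling slopes (42.9% rising, against 31.5% of all pairs, and 0.769% of pairs falling). Among the 9, miR-629, miR-631 and miR-647 had passed the detection filter on treated arrays alone, so the filter had a part in this count. The slope of miR-594 was 0.32 ± 0.09 log2 units per dose step and that of miR-631 0.26 ± 0.07 (SE, 4 arrays, limma, adjusted p = 0.0725 for both). Those of miR-617 and miR-564 were 0.21 ± 0.08 and 0.19 ± 0.07 (limma, adjusted p = 0.124 and 0.0858). The difference of miR-574 fell by 0.12 ± 0.10 per step (limma, adjusted p = 0.41), and its direction rests on the untreated array: without that array the slope was 0.15.

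Without the array at 1 nM 10 of the 21 members passed with rising differences (against 43.8% of all pairs), namely miR-564, miR-568, miR-575, miR-590, miR-594, miR-617, miR-629, miR-631, miR-647 and miR-660. Without any other single array 0 passed. With no background correction 2 did (against 17.7%), miR-594 (slope 0.34, limma, adjusted p = 0.028) and miR-631 (slope 0.23, limma, adjusted p = 0.0382). In the line fitted to quantile-normalized matched intensity itself, 0 of the 21 passed in either direction (0% of 136), with a smallest adjusted p of 0.125 (limma). At an unadjusted p under 0.05, 9 rose (42.9%, against 11%) and 2 fell (9.52%, against 15.4%). The detection filter had a part in this too. Apart from miR-605, every member that passed it on treated arrays alone is among the 9. Of the 2 that fell, miR-608 had passed it on the untreated array alone. How many passed turned on the scaling. The counts under each scaling are over the same 21 members, so the filter can have a part in each. Members detected on treated arrays alone, such as miR-629, are also among the 10 that passed without the array at 1 nM. These trend counts, set against all detected miRNAs or pairs, are therefore a description. They carry no weight as a response of the members. With no scaling 14 passed rising (66.7%, against 38.2% of detected miRNAs) and 0 falling (against 0.735%). With median scaling 13 rose (against 35.3%) and 0 fell (against 0.735%), with cyclic loess 7 rose (against 7.35%) and 2 fell (against 9.56%), and centred on detected probes 3 rose (against 5.15%) and 2 fell (against 4.41%).

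**Figure D5:**
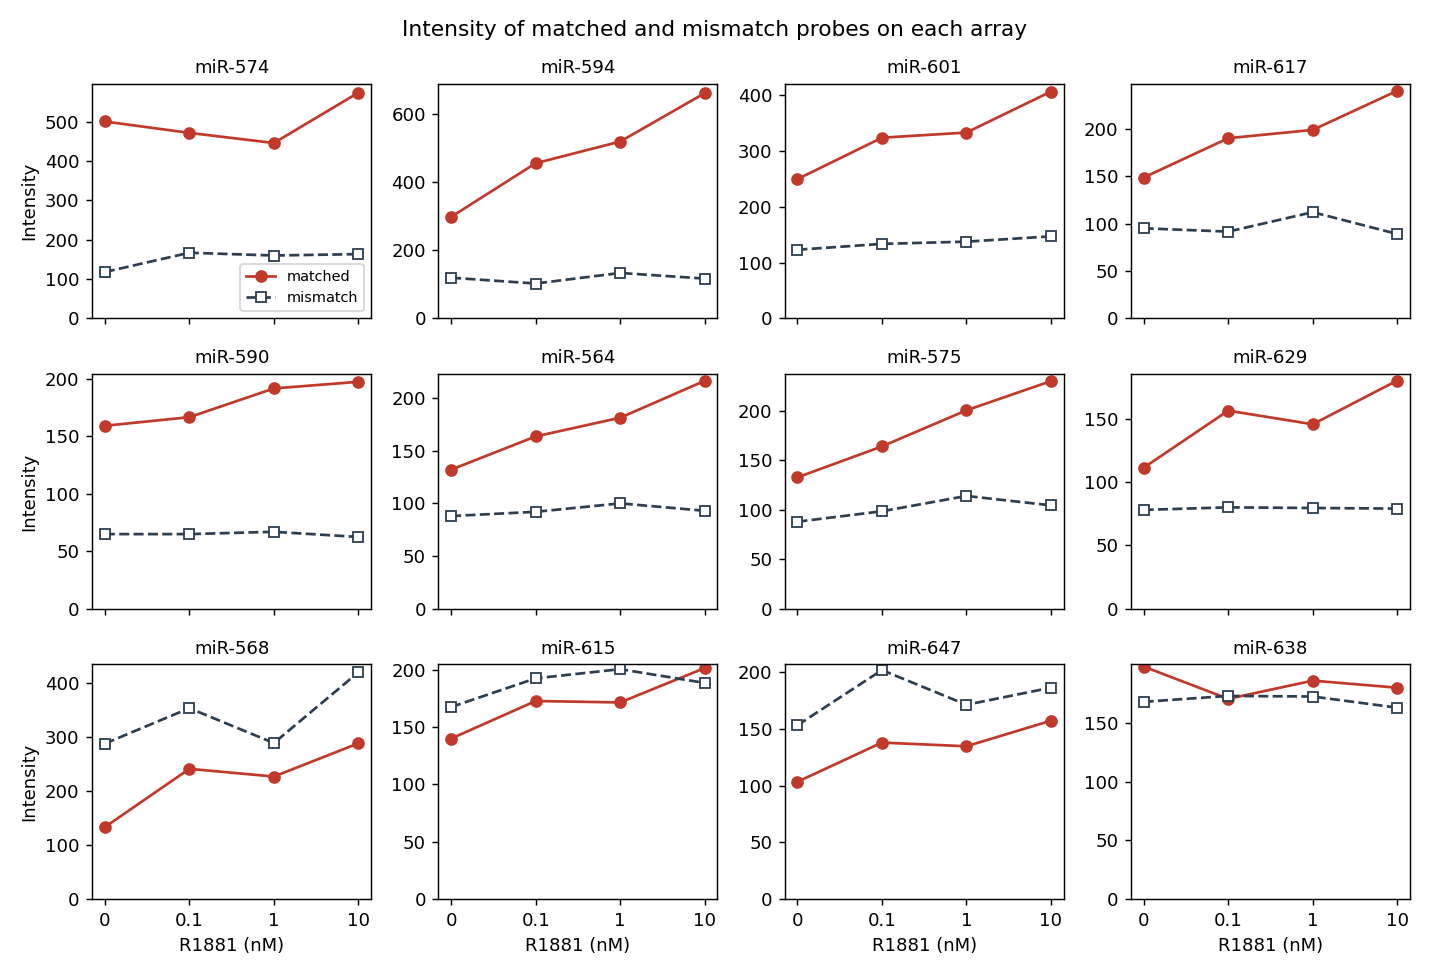
Intensity on each of the 4 arrays (y axis, linear) against the R1881 dose in nM (x axis, equal steps) for 12 members; red circles are the matched probe and open squares its mismatch, 1 array per point with no replicate. In the upper 2 rows the matched probe is above its mismatch at every dose; in the lowest row miR-568 and miR-647 lie under theirs, and miR-615 and miR-638 run alongside.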

How the data were processed

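Per the labels, 10 µg of total RNA per sample carried Cy3 onto a custom CombiMatrix array. The deposited intensity values are 1 mean per probe name, per the file headers, without background removal. Their fractions are those of means of 4 spots (matched) and 2 spots (mismatch). For scanner and software the sources used here give no name. The labels speak of values relative to the control, yet the control array holds intensities like the others. The authors' table of processed intensity was set against the array files and used for its constant and its blanks.

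Of 604 mismatch probes, 28 listed at 0 on some array were left out. Intensities were corrected with limma's normexp (offset 50) in R 4.3.3 with limma 3.58.1 and put on a log2 scale. Matched minus mismatch values were unscaled, and ratios to the untreated array were quantile-normalized. limma's lmFit and eBayes tested the mean difference (3 residual degrees of freedom) and slopes over dose rank (2), adjusted by Benjamini-Hochberg over all pairs or probes tested, at 0.05. The limma fits of the mean difference and of the slopes were tested on simulated data. The number of arrays limits the precision.

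Members and lists were chosen with earlier results of these data known. Named were the 12 brightest members, the 8 highest and 8 lowest differences, the 5 highest and 5 lowest ratios, any trend call and up to 4 per list. miR-21, miR-206, miR-16, miR-29b, miR-627, miR-618, miR-658, miR-572, the members with a high or low mismatch share, the names without a gene match and those with a mismatch at 0 were added after their values were seen. Alternatives were other scalings, background corrections, filters, dose codings and leaving out each array. Subtraction of the authors' constant and centring on detected probes were alternatives chosen after seeing the data.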

Additional observations from a re-analysis of the deposited data

How the results depend on the processing

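The counts over members held within 1.5 times under most alternatives. The 50 members above their mismatch became 13 with detected probes alone and 25 with the authors' constant subtracted, and the 13 below it became 2 with detected probes alone; fewer members entered the first of these fits. Without single arrays these counts ran from 35 to 48 and from 9 to 15. Requiring 1.5-fold on all arrays left 7 of 58 members above their mismatch, or 10 after normexp, and 59 to 69 were above it without single arrays. Detection fell from 21 to 11 when all 4 arrays were required and rose to 38 with a 90th percentile limit. The 1 member past 1.5-fold at all doses became 2 with no scaling, with median scaling and without the 0.1 nM array (range 1 to 2 without single arrays). Rising intensity trends went from 0 to 14 with no scaling, 13 with median scaling, 7 with cyclic loess, 4 with no detection filter and 3 centred on detected probes, and falling trends from 0 to 2, 3 and 2 with cyclic loess, no filter and centring. Rising trends of the difference went from 0 to 2 with no background correction and ran from 0 to 10 without single arrays. Why these counts moved was not tested. For named members 220 of 245 values of the difference and 104 of 117 of its slope kept their direction and side of the threshold, with 23 and 0 weaker, 1 and 11 stronger, and 1 and 2 reversed. Of 40 ratios to the untreated array 28 moved by more than their spread over doses, and 0 changed sign. Without single arrays the difference of miR-654 ran from −0.13 to 0.0038, the slope of miR-574 from −0.35 to 0.15 and that of miR-638 from −0.072 to 0.089, each turning sign. miR-568 and miR-550 lost the threshold with the authors' constant subtracted (limma, adjusted p = 0.0511 for both). No paired analysis was possible because each dose has 1 array and the labels carry no replicate numbers. With 1 untreated array, change with R1881 and that array's own deviation cannot be told apart.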
